A study of Mus musculus with 4 samples.

Results

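The injury gradient among 12 brain RNA libraries from mice with stroke was examined. These 12 libraries, of 24 in all, were ordered by an injury score, the mean of log2(CPM + 1) over 8 genes, where CPM is the count of a gene scaled to the total of its library. The score genes were Gfap, Lcn2, Serpina3n and C3 of reactive astrocytes, and Lgals3, Cst7, Clec7a and Gpnmb of activated microglia and macrophages. A slope, the log2 change of a gene per unit of score, was fitted with the group as a covariate for the 15566 genes with a mean of 20 counts or more, of 31883 genes in the table, and 16309 genes below that mean and the 8 score genes were not fitted. The members were the 1175 genes whose slope passed an adjusted p of 0.05 (edgeR quasi-likelihood test, Benjamini-Hochberg): 1063 rose with the score (6.83% of the genes tested) and 112 fell (0.72%). The members were thus chosen by their slopes in these 12 libraries, and because the slopes chose them, they are given as a description. Tests were run only on other libraries or other contrasts. Refits of the slope with libraries left out or settings changed are descriptions too.

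All mice were male C57BL/6J, 3 to 5 months old. In the hypertensive (HT) groups angiotensin II was infused over 28 days, with a daily dose of 0.28 mg/kg, and the normotensive (NT) groups were infused with vehicle (saline). On day 7 a photothrombotic stroke aimed at the prefrontal cortex, with the position given in the labels as 1.5 mm anterior to bregma (the study's methods state a slightly different one), or a sham operation was performed, and brain tissue labelled prefrontal was taken on day 28. Each of the 4 groups (NT + Sham, HT + Sham, NT + Stroke, HT + Stroke) had 6 libraries, taken here as 6 mice, so that the p-values measure the spread between libraries. Total counts in the stroke libraries ran from 15922862 to 24865918, and the median of all 24 libraries was 18497144. The neuronal genes Snap25 and Slc17a7 were counted at 1792 to 2155 CPM and 1783 to 2468 CPM in NT + Stroke and showed that the tissue held neuronal RNA. The labels give no infarct size per library and no batch or date, and the mice are one model, a light-induced clot at a fixed site with a constant infusion.

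After an ischaemic lesion of the cortex, dead neurons and myelin are cleared by microglia and blood-derived macrophages, which take up debris into lysosomes, handle its lipid and iron, and present antigen on MHC class II. Astrocytes around the lesion become reactive, raise intermediate filaments and complement, and enclose a core in which fibroblasts lay down collagen. Weeks after the stroke this scar and its phagocytes persist while neurons of the core are lost. In bulk tissue, fewer cells of a type and less RNA per cell cannot be told apart, and neither can a larger lesion and a tissue sample that took in more of the lesion.

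The score spread over a wider range in HT + Stroke than in NT + Stroke. In the 6 NT + Stroke libraries, in the order of their numbers, it was 6.33, 6.60, 6.31, 4.87, 5.48 and 6.28 (mean 5.98 ± 0.66 SD). In the 6 HT + Stroke libraries it was 3.04, 6.21, 7.10, 6.58, 5.30 and 3.14 (mean 5.23 ± 1.76 SD). Below every other stroke library lay HT + Stroke 1 and HT + Stroke 6, and above them all lay HT + Stroke 3. The HT + Stroke mean was 0.75 lower than the NT + Stroke mean, which did not pass an exact two-sided permutation test over all splits (p = 0.359), and the difference ran from -1.12 to -0.31 when single libraries were left out.

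**Figure D1:**
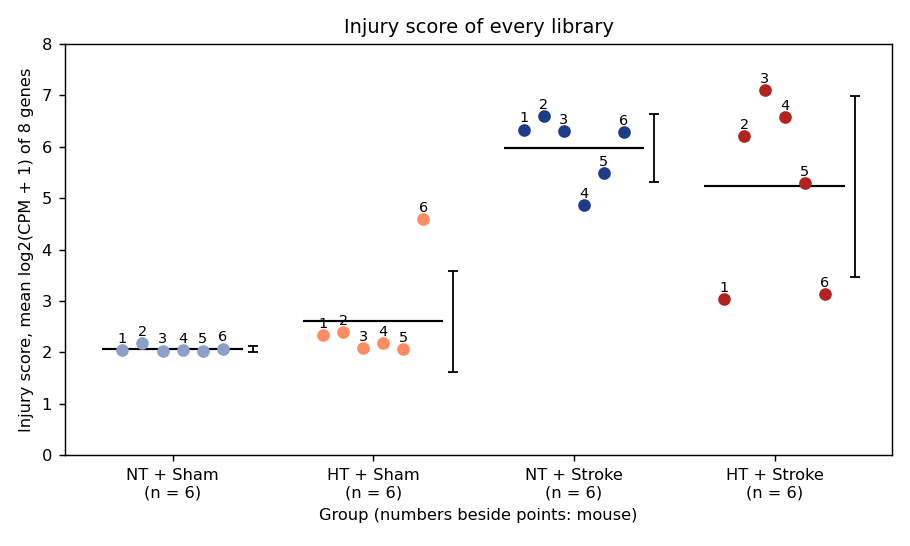
Injury score (mean log2(CPM + 1) of 8 genes, vertical axis) of each library in the 4 groups (horizontal axis) with 1 numbered point per mouse, a line at the group mean and a bar of ± 1 SD. HT + Stroke 1 (3.04) and 6 (3.14) lie below the other stroke libraries, and HT + Sham 6 (4.60) lies above the other sham libraries.

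Sham libraries set the level without a stroke. NT + Sham scores ran from 2.03 to 2.19, and HT + Sham scores from 2.06 to 2.40 except for HT + Sham 6, at 4.60. All 6 NT + Stroke libraries lay above every NT + Sham library, with a mean difference of 3.91 (exact permutation p = 0.00216, the smallest that 6 against 6 can give). Of the HT + Stroke libraries, 4 of 6 lay above every HT + Sham library, with a mean difference of 2.62 (exact permutation p = 0.0173). The score genes are genes of injury, and the paper names Lgals3 and Cst7 among top genes of up-regulated terms in NT + Stroke vs NT + Sham. A higher score after stroke was thus in part built into the score, and both p-values are given as a description. The low-score libraries HT + Stroke 1 and 6 lay above 5 of the 6 HT + Sham libraries and below HT + Sham 6.

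All 8 genes that make the score were lowest in HT + Stroke 1 and 6 among the stroke libraries. Gfap, the astrocyte intermediate filament, had lowest, median and highest values of 625, 992 and 1074 CPM in NT + Stroke and 227, 921 and 1449.5 CPM in HT + Stroke, against 139.9 to 177 CPM in NT + Sham. HT + Stroke 1 and 6, at 240.1 and 227 CPM, were the lowest stroke libraries for it. The HT + Sham libraries other than HT + Sham 6 ran from 166.3 to 237.2 CPM. Gpnmb, a membrane glycoprotein of lipid-laden phagocytes, was 80.1, 248 and 375 CPM in NT + Stroke and 14.9, 158 and 379 CPM in HT + Stroke. Lcn2, which encodes a secreted iron-siderophore binding protein, was 1.98 and 3.01 CPM in HT + Stroke 1 and 6 and 127 CPM in HT + Stroke 3, and in NT + Sham it did not exceed 1.42 CPM. Lgals3 (galectin-3) had a low value within NT + Stroke as well, 8.57 CPM in NT + Stroke 4 against 56.9 CPM for the group median.

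Library measures that moved with the score were recorded. Over the 12 stroke libraries, with values centred within groups, no relation of the score was detected to the total count (r = 0.10, permutation p = 0.672; rho = 0.03, p = 0.934) or to the share of counts in the 10 most counted genes (r = 0.06, p = 0.861; rho = -0.01, p = 0.992). The share of counts in mitochondrially encoded genes was lower where the score was higher (r = -0.58, p = 0.0402, adjusted p over 3 measures 0.121; rho = -0.82, p = 0.00629, adjusted p = 0.0189), with r = -0.57 without HT + Stroke 1 and 6. Regional genes differed too: the summed level of 6 olfactory bulb genes ran from 38.7 CPM in HT + Stroke 1 to 469.8 CPM in NT + Stroke 1, and that of 9 striatal genes from 523.5 CPM in NT + Stroke 4 to 2858 CPM in HT + Stroke 2. HT + Sham 6 had the highest olfactory bulb sum of all 24 libraries, 542.9 CPM, and the lowest striatal sum, 382.6 CPM. HT + Stroke 6 held skeletal muscle RNA, with 286.9 CPM summed over 10 muscle genes against 14.61 to 23.34 CPM in the other 23 libraries. The part of these differences in the slopes was not tested.

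The members were unequal in size and direction. The 1063 rising genes had slopes from 0.07 to 2.37 with a median of 0.31, 223 of them above 0.5 and 43 above 1, while the median over all genes tested was -0.00. The 112 falling genes had a median of -0.11, and 100 of them lay within 0.25 of 0. In rank, HT + Stroke 1 and 6 were the 2 lowest of the 12 libraries for 907 rising genes (85.3%, against 11.2% of all genes tested) and the 2 highest for 50 falling genes (44.6%, against 2.45%), and HT + Stroke 3 was the highest for 758 rising genes (71.3%, against 22.6%). These ranks come from the values that chose the members. Without HT + Stroke 1 and 6, 372 genes rose and 9 fell, among them 351 of the 1063 rising members and 1 of the 112 falling members, Pter, which was named after its value was seen. Without HT + Stroke 1 alone, 671 genes rose and 25 fell, and without HT + Stroke 6 alone 44 fell. The slopes of 1062 rising and 110 falling members had the same sign without both libraries. The libraries left were among those that chose the members, so this agreement in sign was in part set by that choice. At the edge of the threshold, Ttll7 (slope -0.07) and Wipi1 (slope 0.14) were just inside it, and Nupr1 (slope 0.19) and Plxdc2 (slope 0.11) just outside.

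Comparison with sham libraries used group means, not the spread that chose the members, although the stroke libraries were the same. In NT + Stroke vs NT + Sham, 15.5% of all genes tested were higher and 12.6% lower (edgeR, adjusted p under 0.05). Of the rising members, 986 of 1063 were higher and 0 were lower (0 at an unadjusted p under 0.05 also), with a median log2 change of 0.94 against -0.01 over all genes tested. Among the 894 rising members with a mean of 20 counts or more in the sham libraries alone, 832 (93.1%) were higher, beside 14.3% of all genes that met that mean. Of the falling members, 98 of 112 were lower, with a median log2 change of -0.39.

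HT + Stroke vs HT + Sham gave far fewer calls by edgeR. Of all genes tested 0.585% were higher and 0.122% lower, and of the members 15 rising genes were higher and 2 falling genes, Sphkap and Pter, were lower, all named here after their values were seen. The rising members had a median log2 change of 0.63, 1047 of 1063 were positive (98.5%, against 50.4% of all genes) and 725 were higher at an unadjusted p under 0.05 (68.2%, against 11.1%). DESeq2 called 369 rising and 11 falling members in the same comparison. Leaving out HT + Stroke 1 and 6 raised the calls to 720 rising and 47 falling members (6.32% and 1.17% of all genes), and leaving out HT + Sham 6 as well raised them to 821 and 75 (7.41% and 1.88%). HT + Stroke 1 and 6 had the lowest scores of the stroke libraries, and HT + Sham 6 the highest of the sham libraries. The members were chosen by slopes on that score, so these higher counts were in part set by the choice of libraries and are a description. The count of 15 was as low as 1, without HT + Stroke 2 or without HT + Sham 3, and as high as 321, without HT + Stroke 1, when 1 library was left out. The 15 rising members called with all libraries were Gna12, Lsp1, Thbs4, Prkcd, Frmd8, Tmem63a, Tagln2, Tm4sf1, Foxj1, Scara3, Galnt6, Cd109, Clec12a, Fes and 2410004P03Rik. The largest of these changes were in Clec12a, an inhibitory lectin receptor of myeloid cells (log2 2.25), Cd109, a surface protein that binds TGF-beta (2.06), and Thbs4, a matrix thrombospondin of reactive astrocytes (1.63).

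Each stroke library was then set against the sham libraries. In HT + Stroke 1, 124 of the 1063 rising members (11.7%) lay above the 11 sham libraries other than HT + Sham 6, beside 6.62% of all genes tested. In HT + Stroke 6 the count was 204 (19.2%, beside 9.72%). In the other 10 stroke libraries it ran from 791 (74.4%) in HT + Stroke 5 to 1061 (99.8%) in HT + Stroke 3, beside 15.7% to 29.8% of all genes. Most rising members in HT + Stroke 1 and 6 thus did not lie above those 11 sham libraries. The members were chosen by slopes in these same 12 stroke libraries, of which HT + Stroke 1 and 6 had the lowest scores. The low shares in HT + Stroke 1 and 6 therefore follow in part from that choice and are a description.

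**Figure D2:**
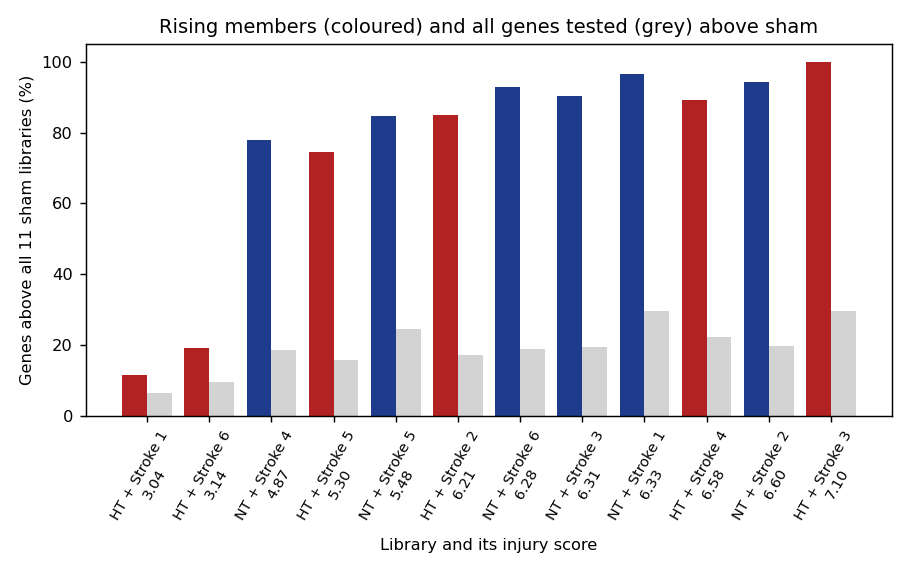
Percent of genes above the 11 sham libraries other than HT + Sham 6 (vertical axis) in the 12 stroke libraries, ordered by injury score along the horizontal axis, with coloured bars for the rising members (blue NT + Stroke, red HT + Stroke) and grey bars for all genes tested. HT + Stroke 1 (11.7%) and 6 (19.2%) lie far below the other stroke libraries, which run from 74.4% to 99.8% of the rising members. The rising members were chosen by slopes in these same 12 libraries.

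Genes of activated microglia and macrophages were among the steepest members. To set beside this list and those below, 6.83% of all genes tested rose with the score and 0.72% fell. In NT + Stroke vs NT + Sham, 15.5% of all genes were higher and 12.6% lower. All 18 tested genes of the disease-associated microglia list rose with the score, with a median slope of 0.45. Lgals3, Cst7, Clec7a and Gpnmb of the score mark the same cells, so this rise was in part built into the score. Of the 18, 17 were higher in NT + Stroke than in NT + Sham. Fabp5, which carries fatty acids, was the one that missed that test (log2 0.32 ± 0.12 SE, adjusted p = 0.0602). None of the 18 passed it in HT + Stroke vs HT + Sham. Itgax (CD11c; ENSMUSG00000030789, chromosome 7, 128129547 to 128150657) had lowest, median and highest values of 3.26, 13.8 and 15.2 CPM in NT + Stroke and 0.502, 8.90 and 31.6 CPM in HT + Stroke, with 0.933 and 0.502 CPM in HT + Stroke 1 and 6. It did not exceed 0.421 CPM in NT + Sham, so that all 6 NT + Stroke libraries lay above it. Its slope was 1.30 ± 0.06 (SE) and its NT stroke change log2 5.61 ± 0.50 (SE; adjusted p = 5.38e-06).

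Lyz2, the lysozyme of myeloid cells (ENSMUSG00000069516, chromosome 10, 117277331 to 117282321), was 115, 474 and 626 CPM in NT + Stroke, 24.6, 271 and 760.4 CPM in HT + Stroke and 10.3 to 15.6 CPM in NT + Sham. HT + Stroke 1 and 6, at 24.6 and 33.9 CPM, lay above the NT + Sham range but far below the other 4 of their group, and the slope was 1.21 ± 0.05. Spp1, or osteopontin, an adhesive glycoprotein secreted by phagocytes (ENSMUSG00000029304, chromosome 5, 104435118 to 104441050), was 62.5, 114 and 143 CPM in NT + Stroke and 10.8, 86.9 and 179 CPM in HT + Stroke. For Spp1, HT + Stroke 1 and 6 (10.8 and 12.2 CPM) fell inside the NT + Sham range of 7.84 to 13.8 CPM, and its NT stroke change was log2 3.20 ± 0.20 (SE; adjusted p = 4.66e-07). Ccl6, a chemokine of myeloid cells, had a slope of 0.94 ± 0.09 and values of 4.37, 16.6 and 24.4 CPM in NT + Stroke against 1.34 to 2.49 CPM in NT + Sham.

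The homeostatic microglia list had smaller slopes. Of its 10 tested genes 5 rose with the score (among them Cx3cr1, Olfml3, Csf1r and Gpr34), with a median slope of 0.16 over the list, and 8 were higher in NT + Stroke vs NT + Sham. Cx3cr1, the fractalkine receptor, was 44.9, 47.9 and 51.7 CPM in NT + Stroke and 29.7 and 27.9 CPM in HT + Stroke 1 and 6, with a slope of 0.27 ± 0.03. Csf1r, the receptor on which microglia depend for survival, had a slope of 0.25 ± 0.03 and an NT stroke change of log2 0.69 ± 0.09 (SE; adjusted p = 1.78e-05). P2ry12 and Siglech, also homeostatic microglia genes, passed neither test.

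Among border and infiltrating macrophage genes 5 of 10 tested rose (Cd5l, Mmp12, Ms4a7, Stab1 and Mrc1), and 9 were higher in NT + Stroke. Cd5l, a scavenger protein secreted by macrophages (ENSMUSG00000015854, chromosome 3, 87357881 to 87371073), had the largest slope of all members with a mean of at least 10 CPM, 2.09 ± 0.22. It was 2.77, 40.4 and 75.7 CPM in NT + Stroke, 0.384, 16.8 and 94.0 CPM in HT + Stroke and 0 to 0.369 CPM in NT + Sham. The lowest NT + Stroke value lay above all NT + Sham values, and HT + Stroke 1 and 6 were at 0.384 and 0.565 CPM. Ms4a7, a membrane protein of border macrophages, was 4.04, 7.64 and 12.7 CPM in NT + Stroke and rose by log2 4.01 ± 0.36 (SE; adjusted p = 1.54e-06) over NT + Sham.

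**Figure D3:**
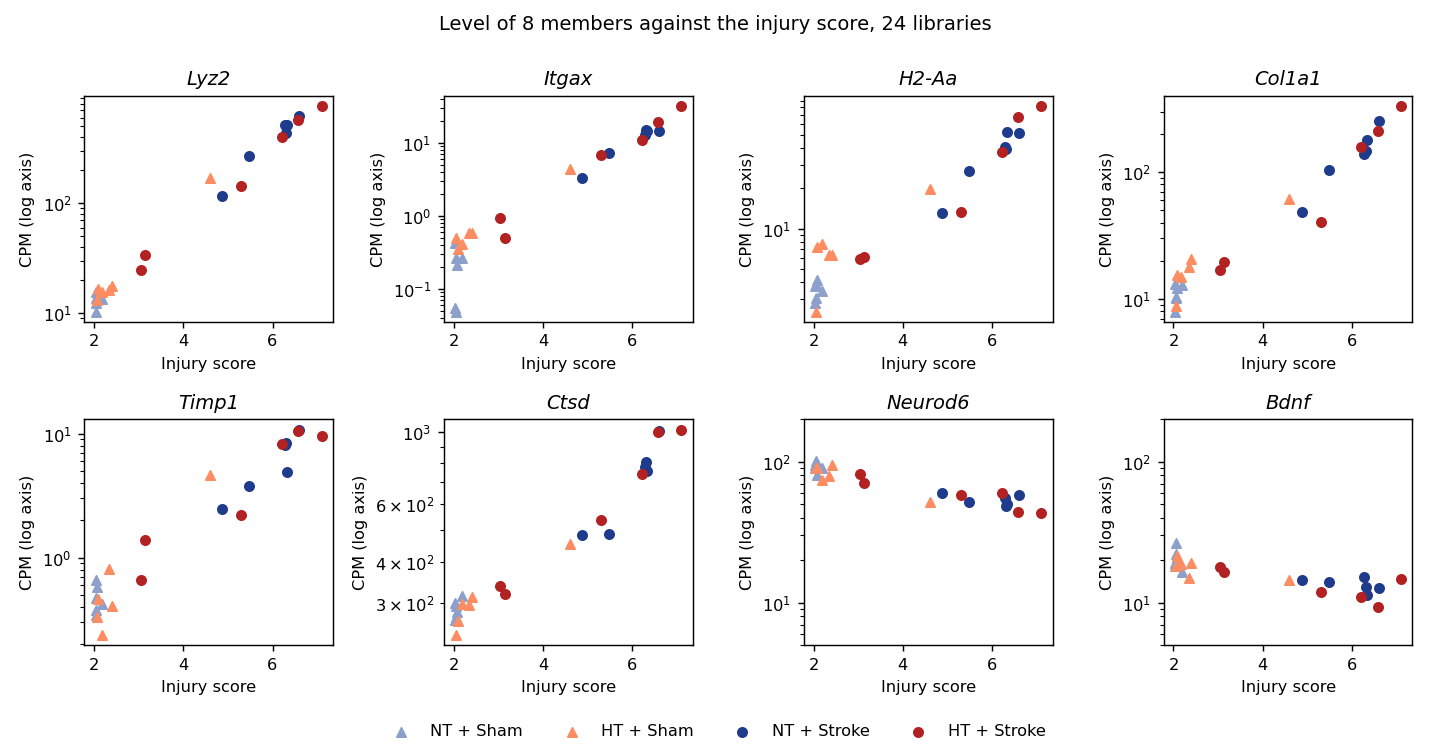
CPM on a log axis (vertical) against the injury score (horizontal) for 6 rising and 2 falling members in the 24 libraries, with circles for stroke and triangles for sham libraries in 4 group colours. The circles of HT + Stroke 1 and 6 sit at the low end of each rising gene, such as Lyz2 at 24.6 and 33.9 CPM, and at the high end of Neurod6 at 82.5 and 70.7 CPM.

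The promoters of Spp1 and Cd68, from the microglial list, are shown because they hold the purine-rich core GAGGAA that the myeloid factor PU.1 is known to bind, and because the 18 genes of the list all rose. RefSeq promoter windows (GRCm38.p6, 250 bases before to 50 after the start) were matched to 11457 of the 15566 genes tested, 813 of the rising and 82 of the falling members. GAGGAA, searched on both strands, was in 26.5% of all these windows, 34.9% of those of rising members and 26.8% of those of falling members, and in 7 of the 14 windows of the disease-associated microglia list. Capitals mark GAGGAA or its reverse complement TTCCTC, each sequence runs 5′ to 3′ on the gene's strand, and a match is a description of the letters, not a site in use.
Spp1, chr5:104434861-104435160, plus strand: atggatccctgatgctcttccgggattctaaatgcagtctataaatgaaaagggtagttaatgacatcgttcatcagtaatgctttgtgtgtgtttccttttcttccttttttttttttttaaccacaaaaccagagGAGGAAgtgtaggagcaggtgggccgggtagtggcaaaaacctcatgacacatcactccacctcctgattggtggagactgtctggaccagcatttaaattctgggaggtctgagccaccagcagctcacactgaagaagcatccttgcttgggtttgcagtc
Cd68, chr11:69666121-69666420, minus strand: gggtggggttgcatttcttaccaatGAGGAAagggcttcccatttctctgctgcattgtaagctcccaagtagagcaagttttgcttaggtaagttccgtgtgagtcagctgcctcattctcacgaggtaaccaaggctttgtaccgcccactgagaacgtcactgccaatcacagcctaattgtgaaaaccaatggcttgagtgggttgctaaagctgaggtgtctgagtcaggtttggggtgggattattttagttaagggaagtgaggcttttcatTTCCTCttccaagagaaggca

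Cd68, the lysosomal glycoprotein whose promoter holds the core 2 times, was 30.5, 63.6 and 86.0 CPM in NT + Stroke and 18.5, 51.5 and 92.9 CPM in HT + Stroke, with 18.9 and 18.5 CPM in HT + Stroke 1 and 6. Its slope was 0.62 ± 0.04 and its NT stroke change log2 2.29 ± 0.24 (SE; adjusted p = 3.62e-05). The AP-1 motif TGANTCA was in 9.1% of the windows of rising members and 4.75% of all windows, and the cyclic AMP response element core TGACGT in 5.17% and 11.5%. None of the 4 motifs searched contains another.

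Complement and Fc receptor genes, which mark debris and carry it into phagocytes, rose nearly as whole lists. Of 11 complement genes tested 10 rose, all but C2, with a median slope of 0.47, and all 11 were higher in NT + Stroke vs NT + Sham. C4b, which is cleaved on the way to C3 activation, was 114, 187 and 207 CPM in NT + Stroke, 45.1, 159.6 and 273 CPM in HT + Stroke and 17.9 to 25.9 CPM in NT + Sham. Even HT + Stroke 1 and 6 (46.0 and 45.1 CPM) lay above its NT + Sham range, and its NT stroke change was log2 2.85 ± 0.16 (SE; adjusted p = 1.41e-07). C3ar1, the receptor for the C3a fragment, had the largest slope of the list, 0.84 ± 0.05, and Serping1, the C1 inhibitor, a slope of 0.61 ± 0.04. All 5 Fc receptor genes rose, with slopes from 0.44 (Fcgr3) to 0.77 (Fcgr4), and all 5 were higher in NT + Stroke. Fcgr4, an activating receptor for IgG, was 2.04, 2.57 and 3.87 CPM in NT + Stroke and did not exceed 0.214 CPM in NT + Sham.

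Genes that digest and store the debris followed. Of 14 lysosomal genes 13 rose, with a median slope of 0.26, and 13 were higher in NT + Stroke. Ctss, the cathepsin that processes MHC class II invariant chain, was 136, 252 and 294 CPM in NT + Stroke and 77.0 and 79.6 CPM in HT + Stroke 1 and 6, against 62.9 to 73.2 CPM in NT + Sham, with a slope of 0.53 ± 0.03. Atp6v0d2, a proton pump subunit of macrophages, had a slope of 1.61 ± 0.10 and values of 1.31, 11.3 and 13.5 CPM in NT + Stroke against at most 0.106 CPM in NT + Sham. Of 9 lipid efflux and foam cell genes 7 rose (all but Nr1h3 and Npc1) and all 9 were higher in NT + Stroke. Among them Plin2, the coat protein of lipid droplets, was 13.4, 23.3 and 28.9 CPM in NT + Stroke with a slope of 0.65 ± 0.04, and Abca1, which exports cholesterol, had a slope of 0.51 ± 0.04 and an NT stroke change of log2 1.64 ± 0.14 (SE; adjusted p = 1.73e-06). Of 9 iron and heme genes 5 rose (Slc11a1, Hmox1, Cp, Ftl1 and Slc40a1). Hmox1, which breaks down heme, was 10.9, 19.6 and 27.3 CPM in NT + Stroke and 4.96 to 6.01 CPM in NT + Sham, while Tfrc, the transferrin receptor, was lower in NT + Stroke (log2 -0.40 ± 0.10 SE, adjusted p = 0.00774) and was not a member (slope -0.10 ± 0.04).

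Antigen presentation genes rose as a whole list. All 11 tested genes rose with the score, with a median slope of 0.44, and all 11 were higher in NT + Stroke vs NT + Sham. The class II chains led: H2-Aa (ENSMUSG00000036594, chromosome 17, 34282744 to 34287827) was 13.2, 39.8 and 52.5 CPM in NT + Stroke, 5.93, 25.1 and 81.5 CPM in HT + Stroke and 2.81 to 4.17 CPM in NT + Sham. Its slope was 0.97 ± 0.08 and its NT stroke change log2 3.34 ± 0.33 (SE; adjusted p = 2.26e-05). Cd74, the invariant chain that guards class II during transport, was 36.7, 103 and 145 CPM in NT + Stroke, with 14.6 and 19.5 CPM in HT + Stroke 1 and 6, and a slope of 0.89 ± 0.08. H2-Ab1 and H2-Eb1 had slopes of 0.90 ± 0.09 and 0.83 ± 0.07, and the class I gene H2-D1 a smaller one, 0.47 ± 0.03. In HT + Stroke vs HT + Sham the change of H2-Aa was log2 2.08 ± 0.75 (SE; adjusted p = 0.184) and none of the 11 passed.

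The promoters of H2-Aa and H2-Eb1 are shown because all 7 windows matched for the antigen presentation list hold GATTGG, the inverted CCAAT box known from the Y box of class II promoters. Searched on both strands, GATTGG was in 20.6% of all windows, 17.7% of those of rising members and 23.2% of those of falling members. Capitals mark GATTGG or its reverse complement CCAATC (RefSeq, GRCm38.p6, 5′ to 3′ on the gene's strand).
H2-Aa, chr17:34287774-34288073, minus strand: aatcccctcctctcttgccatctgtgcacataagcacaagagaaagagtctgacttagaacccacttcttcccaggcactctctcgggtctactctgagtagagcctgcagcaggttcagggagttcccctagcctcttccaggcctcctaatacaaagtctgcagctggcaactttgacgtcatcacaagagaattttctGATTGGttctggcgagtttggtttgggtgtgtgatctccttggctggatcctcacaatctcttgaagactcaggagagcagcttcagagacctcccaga
H2-Eb1, chr17:34305617-34305916, plus strand: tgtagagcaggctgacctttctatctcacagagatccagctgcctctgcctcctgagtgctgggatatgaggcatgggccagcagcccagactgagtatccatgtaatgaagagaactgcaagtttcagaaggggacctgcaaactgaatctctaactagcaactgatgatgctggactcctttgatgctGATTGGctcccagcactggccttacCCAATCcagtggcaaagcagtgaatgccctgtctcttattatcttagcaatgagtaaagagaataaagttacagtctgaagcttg

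Interferon-stimulated genes and chemokines were members in part. Of 12 interferon-stimulated genes 5 rose with the score (among them Zbp1, Ifi27l2a, Bst2 and Ifit3), although 11 were higher in NT + Stroke vs NT + Sham. Bst2 (tetherin), which holds viruses at the cell surface, was 13.2, 16.7 and 21.3 CPM in NT + Stroke and 5.22 to 6.52 CPM in NT + Sham, with a slope of 0.33 ± 0.07. Of 11 chemokine and receptor genes 8 rose, with a median slope of 0.64, and all 11 were higher in NT + Stroke. Cxcl16, the ligand of CXCR6, was 4.94, 8.79 and 11.2 CPM in NT + Stroke with a slope of 0.72 ± 0.05, and Ccl3 had a slope of 0.90 ± 0.09. Ccl12 and Cxcl10 were not members, yet they were the 2 of the list that were higher in HT + Stroke vs HT + Sham (log2 1.82 ± 0.38 (SE; adjusted p = 0.0369) for Ccl12 and 2.88 ± 0.55 (SE; adjusted p = 0.0319) for Cxcl10).

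Lymphocyte and neutrophil genes were thin. Of 12 T cell genes only 3 reached the mean of 20 counts, none of them a member, and Cd3d, Cd3e, Cd3g and Cd8a were among those below it. Of the 4 B and plasma cell genes tested, Jchain, the joining chain of secreted antibodies, rose (0.97 ± 0.19), with 1.47, 3.33 and 9.87 CPM in NT + Stroke. Igkc had a slope of 1.39 ± 0.41 that missed the threshold, and its values were uneven, up to 49.7 CPM in NT + Stroke. S100a8 and S100a9, the neutrophil genes tested, were higher in NT + Stroke (log2 3.00 ± 0.79 (SE; adjusted p = 0.0153) and 2.98 ± 0.86 (SE; adjusted p = 0.0247)) and were not members.

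The reactive astrocyte list also rose nearly whole. Of 18 tested 16 rose, all but S100a10 and Clcf1, with a median slope of 0.45, and 17 were higher in NT + Stroke vs NT + Sham. Gfap, Lcn2, Serpina3n and C3 of the score are genes of the same cells, so this rise was in part built into the score. Steap4, a metalloreductase, had the largest slope of the list, 1.17 ± 0.10, and was 4.24, 8.22 and 15.2 CPM in NT + Stroke against 0.0534 to 0.475 CPM in NT + Sham. Vim, the intermediate filament vimentin, was 133, 182 and 213 CPM in NT + Stroke, 49.2, 149 and 258 CPM in HT + Stroke and 40.9 to 46.6 CPM in NT + Sham, with a slope of 0.49 ± 0.03. Cd44, the hyaluronan receptor, had a slope of 0.72 ± 0.05 and an NT stroke change of log2 2.32 ± 0.18 (SE; adjusted p = 2.02e-07). In HT + Stroke 1 and 6 Cd44 was at 2.19 and 2.07 CPM, within the NT + Sham range of 1.49 to 2.62 CPM.

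Homeostatic astrocyte genes rose little. Only Aqp4 and Aldh1l1 of 12 tested were members, and the list had a median slope of 0.08, while 8 of 12 were higher in NT + Stroke. Aqp4, the water channel of astrocyte endfeet, was 85.4, 94.6 and 101 CPM in NT + Stroke and 45.1 and 45.7 CPM in HT + Stroke 1 and 6, with a slope of 0.21 ± 0.05. Sox9, a transcription factor of astrocytes, had a slope of 0.14 ± 0.05 and Slc6a11, a GABA transporter, 0.09 ± 0.12, and neither was a member.

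**Figure D4:**
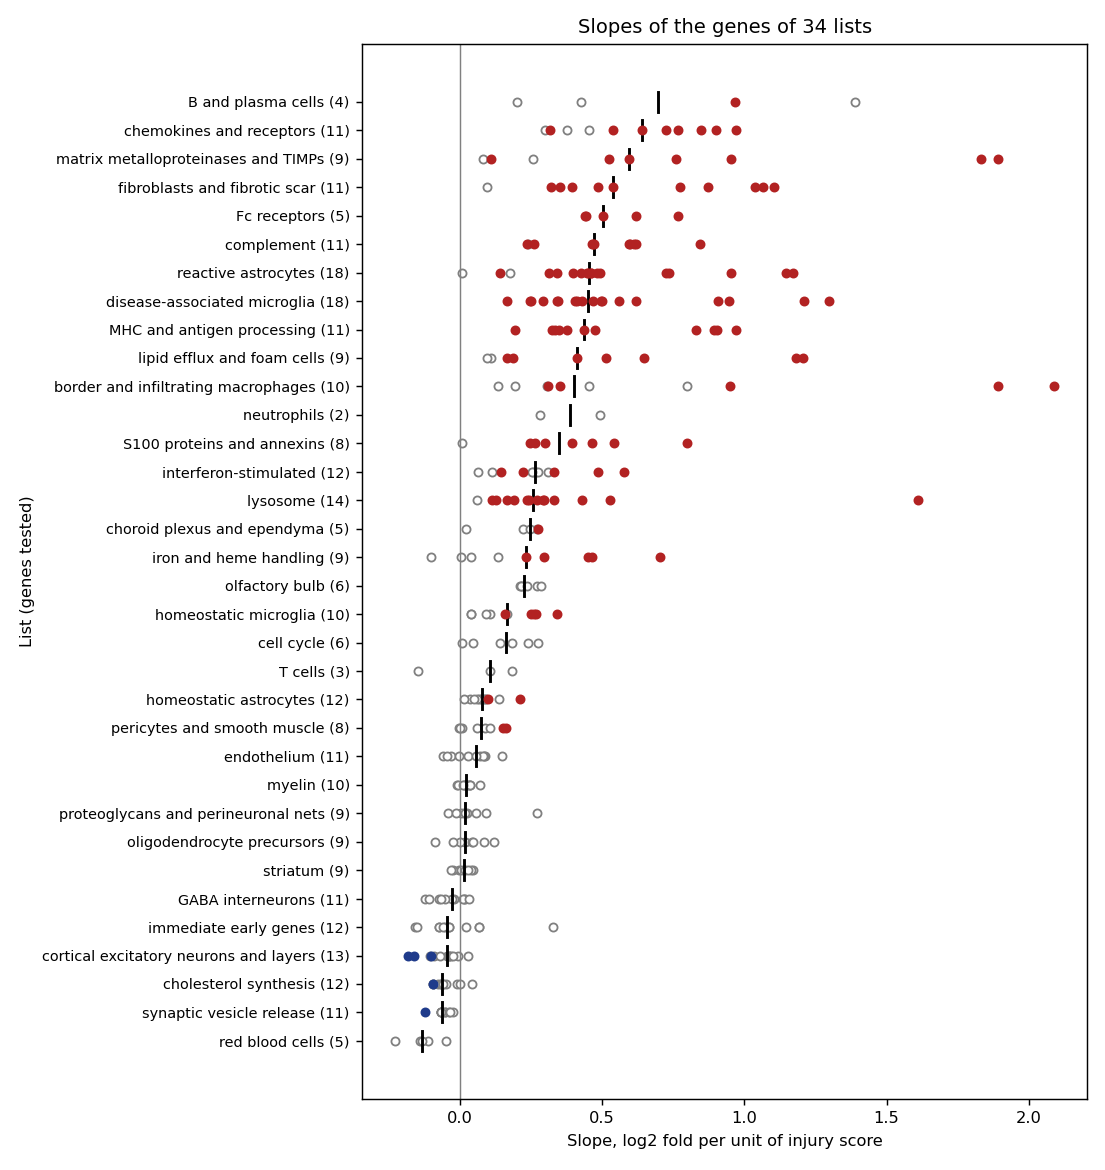
Slope (log2 change per unit of injury score, horizontal axis) of each tested gene in the gene lists (rows), filled red for rising members, filled blue for falling members and open for other genes, with a black mark at each list's median. Disease-associated microglia (median 0.45), Fc receptors (0.50) and fibroblast genes (0.54) lie to the right of 0, and excitatory neuron genes (median -0.05) lie near or left of it.

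Fibroblast and matrix genes formed the next group. Of 11 fibroblast and fibrotic scar genes 10 rose, all but Col5a1, with a median slope of 0.54, and all 11 were higher in NT + Stroke vs NT + Sham. Col1a1, a chain of type I collagen (ENSMUSG00000001506, chromosome 11, 94936224 to 94953042), was 48.2, 143 and 252 CPM in NT + Stroke, 16.8, 99.2 and 329.8 CPM in HT + Stroke and 7.95 to 13.1 CPM in NT + Sham. HT + Stroke 1 and 6 (16.8 and 19.5 CPM) lay just above that NT + Sham range. They lay below the highest HT + Sham library other than HT + Sham 6, at 20.5 CPM. The slope of Col1a1 was 1.04 ± 0.08. Col3a1, of type III collagen, had a slope of 1.07 ± 0.09 and an NT stroke change of log2 4.41 ± 0.42 (SE; adjusted p = 2.46e-05). Lox, which crosslinks collagen, was 0.110 and 0.440 CPM in HT + Stroke 1 and 6 and 1.63, 3.84 and 5.63 CPM in NT + Stroke. Sfrp4, a secreted Wnt antagonist, and H19, an imprinted long noncoding RNA, had slopes of 1.17 ± 0.14 and 1.14 ± 0.20.

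Matrix metalloproteinases and their inhibitors rose in 7 of 9 genes, all but Mmp9 and Timp3, with 8 of 9 higher in NT + Stroke. Mmp12, the elastase of macrophages, was 1.27, 14.7 and 17.7 CPM in NT + Stroke and at most 0.107 CPM in NT + Sham, with 0.165 and 0.251 CPM in HT + Stroke 1 and 6 and a slope of 1.89 ± 0.17. Mmp3 (stromelysin-1) had a slope of 1.83 ± 0.22, and Timp1, an inhibitor of these enzymes, 0.95 ± 0.11. Of 8 S100 and annexin genes 7 rose, all but S100a10, and Anxa1, the annexin that limits leukocyte entry, was 5.84, 12.3 and 18.3 CPM in NT + Stroke with an NT stroke change of log2 2.94 ± 0.25 (SE; adjusted p = 9.13e-07).

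Vessels, myelin and the glial matrix held few or no members. None of 11 endothelial genes, 10 myelin genes, 9 oligodendrocyte precursor genes and 9 proteoglycan and perineuronal net genes was a member, and their median slopes ran from 0.02 to 0.06. No member came from the 6 olfactory bulb, 5 red blood cell and 6 cell cycle genes tested, whose median slopes were 0.23, -0.14 and 0.16. Acta2 and Pdgfrb, of smooth muscle and pericytes, were the members among 8 mural genes, and Pdgfrb was 30.4, 31.9 and 36.5 CPM in NT + Stroke with a slope of 0.15 ± 0.03. Cldn5, the tight junction claudin of brain endothelium, had a slope of 0.09 ± 0.04. Mbp, Mog, Mag, Cnp and Cldn11 of the myelin list were higher in HT + Stroke vs HT + Sham, Cnp by log2 0.56 ± 0.09 (SE; adjusted p = 0.0153), with 401 and 468 CPM in HT + Stroke 1 and 6 against 277 to 414 CPM in HT + Sham. For Cnp, HT + Stroke 6 lay above all HT + Sham libraries and HT + Stroke 1 above 5 of 6. Foxj1, the factor for motile cilia, was the one member among 5 ependymal genes and was higher over sham in both NT (log2 1.26 ± 0.20 SE, adjusted p = 0.000227) and HT mice (log2 1.11 ± 0.18 SE, adjusted p = 0.0153).

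Few falling members were on the lists, and most of those were neuronal. Of 13 cortical excitatory neuron genes 3 fell, Neurod6, Fezf2 and Tbr1, and 11 were lower in NT + Stroke vs NT + Sham. In HT + Stroke vs HT + Sham 1 of the 13 was higher and 0 were lower, beside 0.585% and 0.122% of all genes. Neurod6, a transcription factor of pyramidal neurons (ENSMUSG00000037984, chromosome 6, 55677822 to 55681263), was 48.6, 53.5 and 60.3 CPM in NT + Stroke, 43.4, 59.1 and 82.5 CPM in HT + Stroke and 80.3 to 102 CPM in NT + Sham. Its values in HT + Stroke 1 and 6, 82.5 and 70.7 CPM, were the 2 highest of their group, and all NT + Stroke libraries lay below NT + Sham. Its slope was -0.18 ± 0.04 and its NT stroke change log2 -0.83 ± 0.07 (SE; adjusted p = 3.64e-07). Fezf2, which specifies subcerebral projection neurons, was 26.9, 31.5 and 34.9 CPM in NT + Stroke and 43.5 and 41.1 CPM in HT + Stroke 1 and 6, with a slope of -0.16 ± 0.04. The changes of Neurod6 and Fezf2 in HT + Stroke vs HT + Sham did not pass (log2 -0.41 ± 0.19 (SE; adjusted p = 0.27) and -0.29 ± 0.18 (SE; adjusted p = 0.432)).

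Sv2b, a synaptic vesicle glycoprotein, was the one falling member among 11 genes of vesicle release, with 234, 254 and 283 CPM in NT + Stroke, 311 and 292 CPM in HT + Stroke 1 and 6 and a slope of -0.12 ± 0.02, while 10 of the 11 were lower in NT + Stroke vs NT + Sham. Bdnf, the neurotrophin, was 11.3, 13.4 and 15.3 CPM in NT + Stroke and 16.5 to 26.4 CPM in NT + Sham, with no overlap, and its slope was -0.15 ± 0.04, a call that was lost under 19 of 26 alternatives. Ramp3, which partners receptors of the calcitonin family, had the steepest fall of the members with a mean of at least 10 CPM, -0.20 ± 0.06, with 27.4 and 27.5 CPM in HT + Stroke 1 and 6 against a median of 16.1 CPM in NT + Stroke. Slopes between -0.13 and -0.18 were found for Bmp3, a bone morphogenetic protein, Gpr22, an orphan receptor, Pcdh19, a protocadherin, Pgm2l1, a sugar phosphate synthase, Ndst3 and B3galt2, which modify glycans, and Bend5 and Pter. The calls of Ndst3 and Ramp3 were lost under 13 and 10 of the 26 alternatives. The 12 genes of cholesterol synthesis had a median slope of -0.06, and 9 of them were lower in NT + Stroke. None of 11 GABA interneuron genes, 12 immediate early genes and 9 striatal genes was a member.

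The 6 falling members with slopes below -0.5 were all skeletal muscle genes, Ckm (-1.71), Myh4 (-1.66), Atp2a1, Myh1, Myl1 and Ttn. All 10 muscle genes of a list added after the values were seen were highest in HT + Stroke 6 of the 24 libraries, a library with a low score. Without HT + Stroke 6 the slopes were -0.17 ± 0.25 for Ckm, the muscle creatine kinase, and 0.15 ± 0.33 for Myh4, a fast myosin heavy chain. None of the 10 then passed the threshold, the lowest adjusted p being 0.135 (edgeR).

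Slopes within each group were compared because genes chosen in one group can be tested in the libraries of the other. In NT + Stroke alone 140 genes rose (0.899%) and 3 fell (0.0193%), Grm2, Abi3bp and Fjx1, named after their values were seen. In HT + Stroke alone 737 rose (4.73%) and 18 fell (0.116%). Of the 140 genes that rose in NT + Stroke, 127 also rose in HT + Stroke. A positive slope there was found for 138 of them (98.6%, against 48% of all genes), with a median over the 140 of 0.58. Of the 737 that rose in HT + Stroke, 127 rose in NT + Stroke and 674 had a positive slope there (91.5%, against 48.9% of all genes). At an unadjusted p under 0.05, 397 of the 737 rose in NT + Stroke (53.9%), which 5.54% of all genes did. Without HT + Stroke 1 and 6, the HT + Stroke slopes gave 11 rising genes, 5 of them among the 140. The 3 genes that fell in NT + Stroke and the 18 that fell in HT + Stroke gave 0 calls in the other group (edgeR), and at an unadjusted p under 0.05 none of the 3 fell in HT + Stroke (3.47% of all genes did) and none of the 18 in NT + Stroke (2.51%).

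No gene passed a test of the difference between the slopes by edgeR (785 at an unadjusted p under 0.05), and DESeq2 called 5 (831 at an unadjusted p under 0.05). By DESeq2, the slope was higher in HT + Stroke than in NT + Stroke for Iigp1 (difference 1.06) and Ifi27l2a (0.96), both induced by interferon, and lower for Cldn11 (-0.37), Ccdc153 (-1.95) and Prdm12 (-1.51), and Ccdc153 and Prdm12 were named after their values were seen. Iigp1 and Ifi27l2a had slopes of opposite sign in the groups, -0.47 ± 0.19 and -0.31 ± 0.15 in NT + Stroke and 0.59 ± 0.08 and 0.65 ± 0.08 in HT + Stroke. At an unadjusted p under 0.05, 43 of the 1063 rising members had a higher slope in HT + Stroke (2.95% of all genes had) and 25 a lower one (2.09%), and the median difference over the rising members was 0.02. A missed threshold here does not show that the slopes were equal.

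**Figure D5:**
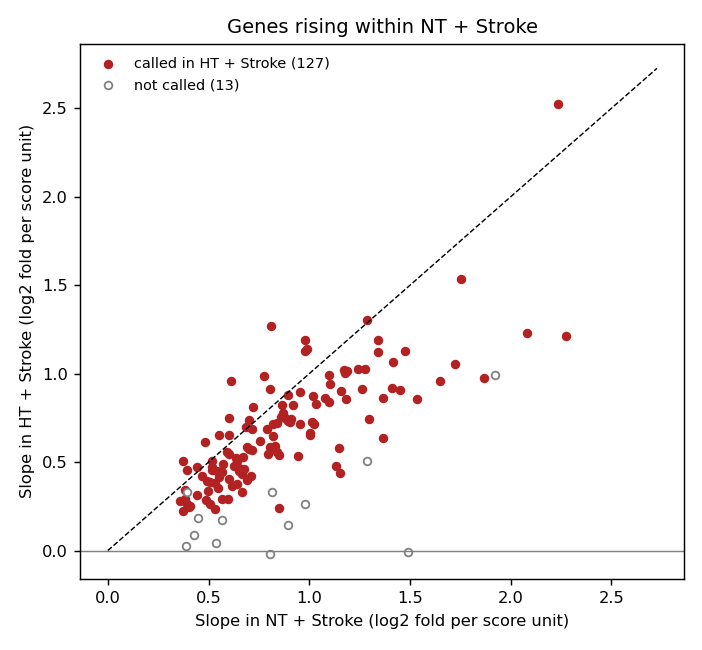
Slope on the injury score in HT + Stroke (vertical axis) against that in NT + Stroke (horizontal axis), both as log2 change per unit of score, for the 140 genes that rose in NT + Stroke, with filled points for the 127 called in HT + Stroke and a dashed line of equal slopes. Of the 140 genes, 138 lie above 0 on the vertical axis.

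HT + Stroke vs NT + Stroke was tested with and without the score in the fit. No gene passed in either fit by edgeR (1088 with the score and 1199 without it at an unadjusted p under 0.05) or by DESeq2 (1117 and 1297). The rising members had a median log2 difference of -0.11 without the score, with 848 of 1063 lower in HT + Stroke (79.8%, against 54.1% of all genes), and of 0.02 at equal score, with 469 lower (44.1%, against 52.7%). At an unadjusted p under 0.05, 4 rising members were higher (3.08% of all genes) and 18 lower (4.62%) without the score, and 51 higher (2.51%) and 34 lower (4.48%) at equal score. The falling members had medians of 0.03 without the score and -0.06 at equal score. The members were chosen by slopes in these same 12 libraries, and the HT + Stroke mean score was 0.75 lower. These medians and shares of the members thus follow in part from that choice and are a description. The smallest p-values at equal score belonged to Lysmd3 (log2 -0.54), Klc3, a kinesin light chain (0.70), and Ttyh2, a channel-like membrane protein of glia (0.24), with an adjusted p of 0.679 for the lowest (edgeR).

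The calls of a gradient among the sham libraries at an adjusted p under 0.05 rested on 1 library. With group as a covariate, 130 genes rose with the score among the 12 sham libraries (0.835%) and 21 fell (0.135%), and 107 of the 1063 rising members and 3 of the 112 falling members were among them. The 3 falling members were Fezf2, Neurod6 and Map3k5. Without HT + Sham 6, 1 gene rose (0.00642%), the GABA transporter Slc6a13, and none of the members was called (edgeR). At an unadjusted p under 0.05, 153 rising members then rose (14.4%, against 13.7% of all genes) and 50 fell (4.7%, against 13.1%), and 46 falling members fell (41.1%) and 2 rose. With HT + Sham 6 in the fit, 7.32% of all genes rose and 4.88% fell at that threshold, so the unadjusted shares over all genes were higher without it. HT + Sham 6 was the highest of the 12 sham libraries for 758 rising members (71.3%, against 20.3% of all genes) and the lowest for 58 falling members (51.8%, against 8.49%). In that library Lyz2 was 168 CPM, Col1a1 61.3 CPM and Neurod6 51.5 CPM, each on the stroke side of the NT + Sham range.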

How the data were processed

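The authors sequenced poly(A) RNA, aligned the reads and counted them per gene with featureCounts 1.5.0-p3, per the submitters' processing notes, which also name DESeq2 1.20.0. The genome build was not given in the sources used here, and 96.2% of the genes tested have the positions of the GENCODE annotation of GRCm38. The deposited raw counts per gene were used for all main results, from 1 table of the 12 stroke and 1 of the 12 sham libraries. The FPKM values deposited by the authors entered only 2 alternatives. The authors' normalised counts and their own fold changes and p-values were not used, nor were the other tables, which compare the same groups.

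Libraries were scaled to CPM for the score, and slopes and group differences were fitted with edgeR 4.0.16 in R 4.3.3 (TMM scaling, quasi-likelihood, two-sided, Benjamini-Hochberg over all 15566 genes). DESeq2 1.42.0 and limma 3.58.1 on log2 values, made here from the deposited FPKM with 1 or 0.1 added, served as alternatives, with other scalings, filters, scores and left-out libraries. The steps were tested on simulated data. The members and the 34 gene lists were chosen with earlier results of these data known. The lists overlap in a few genes, and some of their genes are not reported here. Named were the 12 steepest rising and 12 steepest falling members with a mean of at least 10 CPM, up to 4 genes of each list by size of slope with others where a count needed them, and the 3 genes of lowest p where no gene passed. Total counts of 15922862 to 24865918 limit the precision for genes near 20 counts.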

Additional observations from a re-analysis of the deposited data

Results flagged for a closer look

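Of 144 groups of 6 libraries examined over 36 measures, 26 values stood apart from the other 5 by Dixon's gap at the 95% level. Of these, 20 were in HT + Sham 6. For a single group and measure, chance gives about 1 in 20. The measures included the score, the genes that make it and members chosen by their slope on it, so they were not independent. The count of 26 thus cannot be set against that rate, and the 20 in HT + Sham 6 are not 20 separate findings. HT + Sham 6 had an injury score of 4.60, while the next HT + Sham library had 2.40. Its score genes were all apart: Gfap at 561.9 CPM (next 237.2), Lcn2 at 9.01, Serpina3n at 57.9, C3 at 10.8, Lgals3 at 16.4, Cst7 at 2.87, Clec7a at 4.51 and Gpnmb at 80.8 CPM (next 10.7). Phagocyte members stood apart in it as well, with Lyz2 at 167.8 CPM (next 17.5), Spp1 at 57.8, Cd5l at 14.1, Itgax at 4.403 and Ccl6 at 5.89 CPM. Matrix and scar members were Col1a1 at 61.3 CPM (next 20.5), Sfrp4 at 10.4 and H19 at 8.76 CPM. The class II genes were H2-Aa at 19.7, H2-Ab1 at 23.04 and Cd74 at 49.5 CPM (next 15.7). This library also had the highest olfactory bulb sum, 542.9 CPM, and the part of the dissected region in these values was not tested.

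HT + Stroke 6 stood apart for skeletal muscle RNA, with 286.9 CPM summed over 10 genes against 21.89 CPM in the next library of its group. NT + Stroke 5 had the highest mitochondrial share of its group, 6.98% of counts against 6.23% in the next. NT + Sham 2 stood apart by small amounts, with a score of 2.19 (next 2.07), Serpina3n at 21.4 CPM (next 18.3), Cd5l at 0.369 CPM (next 0.0528) and Sfrp4 at 0.739 CPM, the lowest of its group (next 1.71).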

How the results depend on the processing

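The count of rising genes was stable to the software and scaling tried, and the count of falling genes was not, while none of the slopes of the 12 rising and 12 falling genes named by size changed sign. Against 1063 rising and 112 falling genes, the other tools, scalings, filters and scores gave 953 to 1197 rising, while the falling count was 263 with DESeq2, 39 without scaling, 74 with upper-quartile scaling, 73 with all genes of at least 1 count, and 41 and 39 with limma on log2(FPKM + 1) and log2(FPKM + 0.1). Single libraries left out gave 671 to 1081 rising and 25 to 127 falling genes, with 671 and 25 without HT + Stroke 1, 70 falling without HT + Stroke 4 and 44 without HT + Stroke 6. Without HT + Stroke 1 and 6 together, added after seeing the data, 372 rose and 9 fell, HT + Stroke alone had 11 rising genes and 5 of them were shared with NT + Stroke. DESeq2 gave 265 rising genes in NT + Stroke, of which 211 were called in HT + Stroke. The slope difference had 5 genes with DESeq2, 1 with all genes of at least 1 count, and 0 to 2 with single libraries left out (1 without HT + Stroke 3, 2 without HT + Stroke 6). In HT + Stroke vs HT + Sham, DESeq2 called 369 rising and 11 falling members, and no scaling 7 rising. Single libraries left out gave 1 to 321 rising members (321 without HT + Stroke 1, 192 without 6, 24 without 5, 6 without 3, 3 without 4 and 1 without 2, and 43 without HT + Sham 6, 5 without 2, 2 without 1 or 4 and 1 without 3) and 0 to 12 falling members (12 without HT + Stroke 1). Without HT + Stroke 1 and 6, the stroke libraries of lowest score, the counts were 720 and 47. Without HT + Sham 6, the sham library of highest score, as well they were 821 and 75. The sham slope counts ran from 1 to 137 rising (1 without HT + Sham 6, 83 without HT + Sham 5) and 0 to 28 falling (0 without HT + Sham 6, 5 without HT + Sham 5, 8 without HT + Sham 3, and 11, 12 and 10 without NT + Sham 1, 2 and 6). The cause of these moves was not tested. Of the values of named genes under the alternatives, 550 kept direction and call, 72 lost the call and 0 reversed. The losses were unequal: among the 12 rising genes only H19 lost its call, under 1 of 26 alternatives. Each of the 12 falling genes lost its call under at least 1, from 1 for Pgm2l1 to 19 for Bdnf. Libraries carry the numbers 1 to 6 in each group, which the labels do not tie to a shared mouse, litter or day. Between NT + Stroke and HT + Stroke, deviations of same-numbered libraries from the group means correlated at -0.34 to 0.40, over 0.1 in 2 of 6 pairs, and 2 of 6 libraries correlated best with their own number, so the numbers were not taken as pairs. A replicate block, added after seeing the data, gave 554 rising and 14 falling slopes, 2 rising and 0 falling members in HT + Stroke vs HT + Sham, and 2 rising and 0 falling sham slopes, and the counts in NT + Stroke vs NT + Sham, at equal score and for the slope difference stayed within 1.5 times.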
